A study of Drosophila melanogaster with 9 samples.

Results

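Polysome-associated RNA was compared with total RNA from the same lysates of adult fly heads, to ask which mRNAs were most and least loaded with several ribosomes. The comparison used 6 of the 9 RNA-seq libraries of the series, 3 from pooled polysome fractions and 3 from total RNA. The other 3 libraries, from 80S monosome fractions, entered the fit but are not described here. All libraries came from heads of untreated wild-type Dahomey Drosophila melanogaster, an outbred laboratory strain. The polysome and total RNA libraries were made from different parts of the lysate. Gradient fractions were also precipitated with isopropanol and combined, steps that the study's methods do not describe for total RNA. Any effect of this handling cannot be told apart from the fraction. The flies were at most 5 days old, the heads were broken off frozen whole flies and sieved, and the sex of the flies is not given in the sources used here. Of the lysate, 10% was kept as total RNA and cycloheximide-treated lysate was spun through an 18 to 60% sucrose gradient, in which an mRNA sediments further the more ribosomes it carries. Each library therefore pools many whole heads of mixed cell types, and both parts of a lysate hold the same cells. A ratio of polysomes to total RNA averages over cell types, whose loading of an mRNA may differ. Nothing in the labels says that replicates 1, 2 and 3 were separate fly collections. The p-values measure the difference against the spread left after fraction and replicate number in all 9 libraries, those of 80S monosomes included. For each gene that spread is drawn toward that of other genes, and it may be technical.

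As background, a ribosome that starts on an mRNA moves away from the start codon and makes room for the next, so a polysome forms when initiation recurs before the first ribosome has finished. The number of ribosomes on an mRNA depends on how often initiation occurs, how fast ribosomes move and how long the coding sequence (CDS) is. Short coding sequences have room for few ribosomes. Upstream open reading frames, structured leaders and the terminal oligopyrimidine tracts of ribosomal protein mRNAs are known to lower initiation under some conditions. An mRNA missing from polysomes may sit in free ribonucleoprotein, on a 40S subunit or on a single ribosome, and these states are not separated by a comparison with total RNA.

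The polysome libraries held 13555484, 29326516 and 23065733 assigned reads in replicates 1, 2 and 3, and the total RNA libraries held 30220230, 31849399 and 31015134. Levels are given as CPM (counts relative to the size of the library) after TMM scaling, and each log2 fold change is polysomes over total RNA from edgeR's quasi-likelihood test, with the replicate number as a block and p-values adjusted over all 13076 features tested. A feature was called higher or lower in polysomes at an adjusted p below 0.01. Scaling makes every change relative to the other RNAs of the library. Nuclear protein-coding genes took 90.1 to 93.6% of reads in polysomes, against 88.9 to 89.8% in total RNA. The neuronal markers elav, nSyb, brp, Syt1 and Appl summed to 6360 to 6724 CPM in polysomes and 5052 to 5562 CPM in total RNA. The libraries thus carried neuronal markers of the head. Of 10 testis markers 1 passed the filter on low counts, of 10 ovary markers with counts 6 did, and of 9 gut markers 2 did. The ovary markers summed to 22.1 to 51.4 CPM in polysomes and 36.5 to 60.6 CPM in total RNA. The gut markers summed to 10.3 to 15.3 CPM in polysomes and 13.4 to 16.96 CPM in total RNA. Whether tissue from outside the head was present was not tested.

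Of 13907 nuclear protein-coding genes, 10411 passed the filter on low counts. Among them 1673 were higher in polysomes (16.1%) and 2736 were lower (26.3%), which together made 42.3% of the genes tested. The 3 polysome libraries lay above all 3 total RNA libraries in 21.1% of the genes and below them in 31.9%. The median log2 fold change was -0.12. The balance of directions moved with the scaling. With factors set on nuclear protein-coding genes alone, 2145 genes were higher and 1997 lower, with RLE size factors 1975 were higher and 2280 lower, and without total RNA replicate 1 the counts were 1713 and 1793. Without the replicate block 915 genes were higher and 1353 lower.

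Genes to be named were taken from those called that averaged at least 10 CPM over the 6 libraries and whose groups did not overlap, so the lack of overlap in the genes named by this rule was fixed by the choice. The 12 with the largest increase among them had a median CDS of 2042 codons, the shortest 563 and the longest 4912. They were CG31538, CG4631, Men, CG11122, fzo, btv, Strn-Mlck, tou, Zir, HERC2, CG14200 and CG10631. For CG31538, CG4631 and fzo the mean in total RNA alone was under 10 CPM, so that they entered through their polysome values. In every one of the 12, replicate 1 was the highest of the polysome libraries.

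The gene with the largest increase by this rule, CG31538 (FBgn0051538, chromosome 3R, 5275678 to 5277835, BDGP6.54), had 25.6, 13.2 and 17.5 CPM in polysomes, against 7.27, 5.33 and 6.92 CPM in total RNA. The log2 fold change was 1.49 ± 0.12 (SE, edgeR adjusted p = 9.67e-09). Men (FBgn0002719), the malic enzyme that makes NADPH from malate, was at 2299, 1429 and 1649 CPM in polysomes, against 758, 695 and 739 CPM in total RNA. Its log2 fold change was 1.28 ± 0.15 (SE, edgeR adjusted p = 4.45e-05), which fell short of the threshold without total RNA replicate 1 (edgeR adjusted p = 0.0250). HERC2 (FBgn0031107, chromosome X, 20394395 to 20412247), a giant E3 ubiquitin ligase with a CDS of 4912 codons, was read at 836, 482 and 571 CPM in polysomes, against 294, 259 and 281 CPM in total RNA. Its log2 fold change was 1.15 ± 0.10 (SE, edgeR adjusted p = 1.34e-07).

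Strn-Mlck (FBgn0265045), the stretchin and myosin light chain kinase locus of muscle, reached 2028, 991 and 1384 CPM in polysomes, against 735, 524 and 613 CPM in total RNA. The spread was wider among polysome than among total RNA libraries, and the log2 fold change was 1.19 ± 0.09 (SE). btv (FBgn0023096), the dynein heavy chain of sensory cilia, had 48.3, 25.4 and 37.2 CPM in polysomes, against 16.9, 12.96 and 17.5 CPM in total RNA. fzo (FBgn0011596), a mitofusin known for mitochondrial fusion in spermatids, was low in both groups, at 19.996, 12.6 and 15.9 CPM in polysomes, against 8.24, 6.23 and 6.324 CPM in total RNA. tou (FBgn0033636), a chromatin-remodelling subunit, had 1049.8, 677 and 833 CPM in polysomes, against 382, 362 and 372 CPM in total RNA. The log2 fold changes were 1.19 for btv, 1.202 for fzo and 1.18 for tou. Zir (FBgn0031216), a guanine nucleotide exchange factor of the DOCK family, stood at 804, 412 and 531 CPM in polysomes, against 290.4, 229.6 and 242 CPM in total RNA, with a log2 fold change of 1.16 ± 0.13 (SE); without total RNA replicate 1 its edgeR adjusted p was 0.0187. CG4631 (FBgn0032590, log2 fold change 1.33), CG11122 (FBgn0030266, 1.21), CG14200 (FBgn0031023, 1.14) and CG10631 (FBgn0032817, 1.14) completed the set. CG4631 missed the threshold without the block (edgeR adjusted p = 0.0103). CG14200 overlaps Pfrx on the same strand, so reads in the shared part were divided between them.

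Of the 12 genes with the largest decrease by the same rule, 8 encoded cytosolic ribosomal proteins. The median CDS of the 12 was 118 codons, with a range of 56 to 254. RpS29 (FBgn0261599, chromosome 3R, 9778042 to 9779528, BDGP6.54), a small-subunit protein of 56 codons, had 51.8, 78.0 and 65.0 CPM in polysomes, against 358, 336 and 373 CPM in total RNA. Its level in polysomes was 5.51-fold lower (log2 fold change -2.46 ± 0.10, SE; edgeR adjusted p = 2.19e-12).

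Arc1 (FBgn0033926, chromosome 2R, 14357927 to 14360297) encodes a retrotransposon-derived Gag-like protein that forms capsids and is regulated by neuronal activity. It had 499.8, 418 and 330.3 CPM in polysomes, against 2676, 1991 and 2038 CPM in total RNA. Its level was 5.39-fold lower in polysomes (log2 fold change -2.43 ± 0.20, SE; edgeR adjusted p = 4.69e-05), on a CDS of 254 codons. CR10102 (FBgn0033927), the annotated pseudogene next to Arc1, gave a log2 fold change of -2.39 from 169, 134 and 106 CPM in polysomes, against 839, 627 and 646 CPM in total RNA. Its paralogue Arc2 (FBgn0033928) had 2.46, 1.85 and 1.15 CPM in polysomes, against 1.17, 1.58 and 1.49 CPM in total RNA, and the groups overlapped (log2 fold change 0.30 ± 0.27, SE; edgeR adjusted p = 0.357).

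RpL38 (FBgn0040007), a large-subunit protein of 70 codons, had 15.1, 19.8 and 14.8 CPM in polysomes, against 85.7, 83.3 and 84.1 CPM in total RNA, a log2 fold change of -2.34 ± 0.10 (SE). RpL30 (FBgn0086710) was at 61.5, 100.04 and 77.5 CPM in polysomes, against 379, 306 and 342 CPM in total RNA, and its edgeR adjusted p was 0.0159 without replicate 3. RpS20 (FBgn0019936) had 65.5, 72.7 and 68.3 CPM in polysomes, against 282, 262 and 274 CPM in total RNA. The polysome values of RpS20 were within a narrow band (log2 fold change -1.98 ± 0.08, SE). RpS28b (-1.84), RpS24 (-1.77), RpL31 (-1.76) and RpL14 (-1.74) were the remaining ribosomal protein genes of the 12, by log2 fold change.

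The other 3 were dhd, CG13606 and CG7214. dhd (FBgn0011761), a thioredoxin of the female germline, differed between replicates in both groups, at 2.15, 5.69 and 9.32 CPM in polysomes, against 13.8, 18.3 and 37.2 CPM in total RNA. Within each replicate number the polysome value was the lower one, and the log2 fold change was -1.996 ± 0.13 (SE, edgeR adjusted p = 4.98e-10), against an adjusted p of 0.0129 from edgeR without the block. CG13606 (FBgn0039161) had 38.1, 43.9 and 59.7 CPM in polysomes, against 170.0, 155 and 199.6 CPM in total RNA, and CG7214 (FBgn0031940) had 268, 473 and 410.4 CPM in polysomes, against 1155, 1408 and 1357 CPM in total RNA. The log2 fold changes were -1.90 for CG13606 and -1.80 for CG7214.

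**Figure D1:**
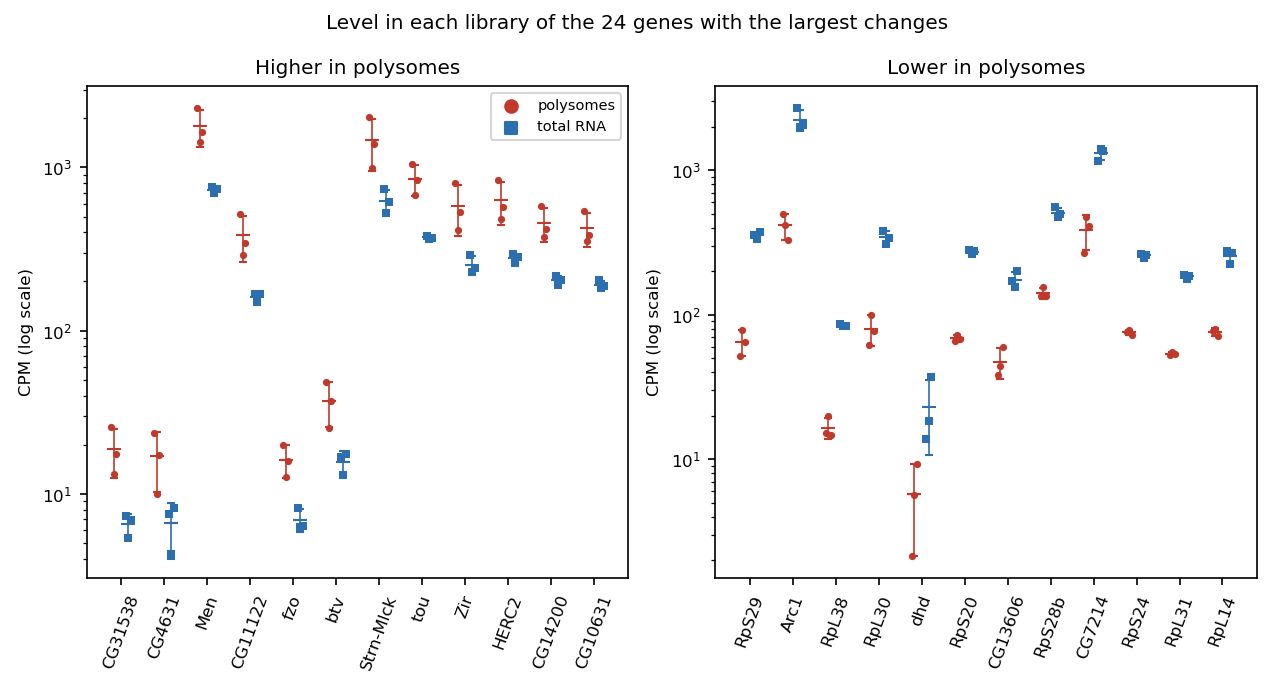
CPM on a log scale in each library of the 12 genes with the largest increase (left) and the 12 with the largest decrease (right), with the 3 polysome libraries (red circles) left of the 3 total RNA libraries (blue squares), and the mean with its SD as a bar. The genes were chosen for groups that do not overlap, and the total RNA values of dhd spread from 13.8 to 37.2 CPM.

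CDS length differed between the calls. Genes higher in polysomes had a median CDS of 1061 codons, genes lower had 291.5 and genes called in neither direction had 445, a ratio of 3.64 between the first and the second. Ordered by CDS length into deciles, the shortest decile had a median log2 fold change of -0.44, with 51 of 1042 genes higher and 472 lower. The longest decile had a median of 0.48, with 770 of 1041 genes higher and 11 lower. The first and second deciles had nearly the same median, -0.44 and -0.45, and from there each decile was above the one before it, crossing 0 at the eighth, whose median CDS was about 700 codons.

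At the extremes, 224 of 239 genes with at least 2000 codons were higher and 1 was lower. In these longest genes the median log2 ratio within a pair was 0.88 in replicate 1, 0.62 in replicate 2 and 0.72 in replicate 3. Of 443 genes with at most 100 codons, 193 were lower and 34 higher, and the median ratios within pairs were -0.49, -0.27 and -0.39. The pair of replicate 1, which holds the shallowest of the libraries compared, its polysome library, thus showed the widest contrast between long and short genes. A ratio within a pair does not separate the polysome library from the total RNA library, and whether depth has a part in the contrast was not tested.

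Lengths of the untranslated regions (UTRs) followed the fold change less closely. Across genes, Spearman's rho with the log2 fold change was 0.52 for the CDS, 0.22 for the 5′-UTR and 0.15 for the 3′-UTR, as a description over 10411 genes that share libraries. The median 5′-UTR was 354 nt in genes higher in polysomes, 147 nt in genes lower and 131 nt in the rest. The median 3′-UTR was 568.5 nt in genes higher, 270 nt in genes lower and 197 nt in the rest. CDS and UTR lengths vary together across genes, and they were not separated here. The rho with CDS length also differed by level, from 0.19 in the quintile of genes with the lowest mean level to 0.74 in the quintile with the highest. In the lowest quintile 6.34% of genes were called higher and 8.11% lower, against 42.3% and 29.1% in the highest quintile.

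**Figure D2:**
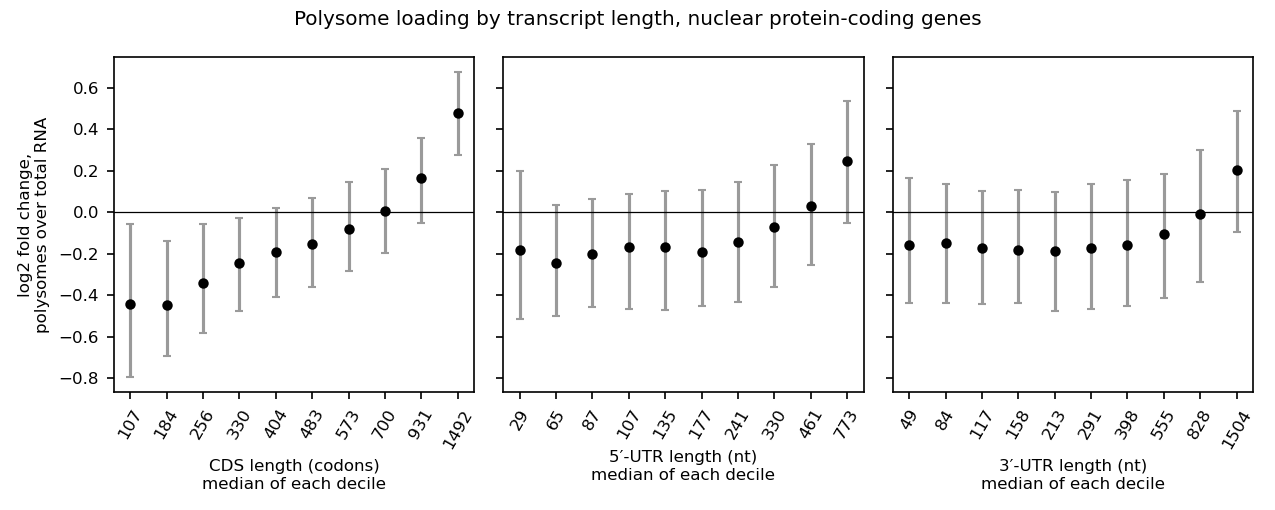
Median log2 fold change, polysomes over total RNA, in deciles of CDS length (left), 5′-UTR length (middle) and 3′-UTR length (right) of nuclear protein-coding genes, with the interquartile range of genes as a bar and the median length of each decile on the horizontal axis. The CDS medians run from -0.44 to 0.48, and those of both UTRs stay near the overall median of -0.12 until the longest deciles.

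A few genes went against their length. Of the 11 genes in the longest decile that were lower, 5 are named here by the size of the change. Marf1 (FBgn0039972, CDS 1294 codons), an RNA-binding protein known in the female germline, had 9.92, 11.84 and 22.6 CPM in polysomes, against 14.6, 19.3 and 35.4 CPM in total RNA. Its groups overlapped, the level differed between replicates, and its log2 fold change of -0.64 was past the threshold with the block (edgeR adjusted p = 1.06e-05) and not without it (adjusted p = 0.222). chp (FBgn0267435), the photoreceptor adhesion protein chaoptin, had 1097, 1511 and 1319 CPM in polysomes, against 1534, 1845 and 1620.5 CPM in total RNA, a log2 fold change of -0.35 ± 0.09 (SE) that missed the threshold without the block (edgeR adjusted p = 0.0562). zye (-0.36), PAPLA1 (-0.34), a phospholipase, and Tep3 (-0.33), a thioester-containing protein of the immune system, were the others, by log2 fold change. The call of PAPLA1 was lost without the block (edgeR adjusted p = 0.0174), polysome replicate 1, total RNA replicate 2 or replicate 2, and that of Tep3 without total RNA replicate 3, replicate 2 or replicate 3. zye was also the 1 gene of at least 2000 codons that was lower, and its call was lost in 13 of 18 alternative settings.

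In the shortest decile, 24 of the 51 genes that were higher averaged at least 10 CPM, and 4 of the 5 with the largest increase among these 24 share exons with a long gene on the same strand. CG46320 (54 codons; log2 fold change 0.98) shares them with sif, CG46308 (0.93) with CG42784, CG46244 (0.81) with Lar and CG43732 (0.76) with CG42613. Reads from the long transcript cannot be told apart from reads of the short frame there. Drsl5 (FBgn0035434), a drosomycin-like peptide of 69 codons, shares no exon with another gene on its strand. It had 93.1, 90.4 and 83.6 CPM in polysomes, against 48.1, 49.3 and 53.4 CPM in total RNA, with no overlap and a log2 fold change of 0.82 ± 0.08 (SE, edgeR adjusted p = 6.95e-08).

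Ribosomal protein mRNAs were low in polysomes. Of 86 cytosolic ribosomal protein genes tested, 84 were lower and 0 higher, against 26.3% and 16.1% of all nuclear protein-coding genes, and the median log2 fold change was -1.24. Without the block 79 were lower. The exceptions were RpL22 (136, 121 and 121 CPM in polysomes, against 166, 133 and 157 CPM in total RNA; edgeR adjusted p = 0.0152) and RpLP0-like, a ribosome assembly factor related to the stalk protein (log2 fold change 0.16, adjusted p = 0.335). The ribosomal protein genes have a median CDS of 154.75 codons. Mitochondrial ribosomal proteins, with a median CDS of 192 codons, had a median log2 fold change of -0.23, and nuclear-encoded subunits of oxidative phosphorylation, with 150.5 codons, had -0.33. The whole second decile of CDS length, with a median of 184 codons, stood at -0.45.

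Initiation factors were split. Of 37 tested, 22 were lower (59.5%) and 5 higher (13.5%), against 26.3% and 16.1% of all nuclear protein-coding genes, with a median of -0.52. The 5 higher became 1 without the block and 3 without polysome replicate 3. eIF3k (FBgn0034654), a subunit of the 40S-binding eIF3 complex, had 25.7, 29.9 and 21.4 CPM in polysomes, against 69.1, 56.6 and 61.4 CPM in total RNA, and the log2 fold change was -1.27 ± 0.10 (SE, edgeR adjusted p = 1.4e-08). eIF4G2 (FBgn0260634), an eIF4G-type scaffold of 2072 codons, was on the other side at 467, 374 and 425 CPM in polysomes, against 259.8, 249 and 255 CPM in total RNA (0.72 ± 0.07, SE). Neither gene had overlapping groups.

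Elongation factors fell further, with 6 of 8 lower (75%), 0 higher and a median of -0.75. The shares of all nuclear protein-coding genes were 26.3% lower and 16.1% higher. eEF1alpha1 (FBgn0284245), which brings aminoacyl-tRNA to the ribosome, is 463 codons long and had 1413, 1417 and 1331 CPM in polysomes, against 3551, 3235 and 3410.0 CPM in total RNA. Every polysome value was under every total RNA value, with a log2 fold change of -1.29 ± 0.10 (SE, edgeR adjusted p = 3.61e-09). eEF1beta (FBgn0028737), its nucleotide exchange factor, had 43.1, 42.0 and 37.9 CPM in polysomes, against 140.0, 118 and 134 CPM in total RNA, lower by 3.17-fold. Aminoacyl-tRNA synthetases did not share this. Among 32 tested, 4 were higher and 4 lower, and their median of -0.04 was above 0 with factors set on nuclear protein-coding genes. ValRS-m, a mitochondrial synthetase, had a log2 fold change of 0.72 and AspRS one of -0.42. Both directions dropped to 1 synthetase in some fits, to 1 higher without polysome replicate 3 or without replicate 3, and to 1 lower without the block, without polysome replicate 1 or without total RNA replicate 2.

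Of 8 known translationally regulated mRNAs tested, 6 were lower (75%) and 0 higher, with a median of -0.72. The shares of all nuclear protein-coding genes were 26.3% lower and 16.1% higher. Without the block 4 of the 8 were lower. With factors set on nuclear protein-coding genes 4 were lower and 1 higher. The list, drawn in the figures under the name of regulatory leaders, was assembled for this comparison from textbook cases. Not every member is controlled through its leader, as Oda below shows. crc (FBgn0000370), the fly ATF4, whose leader carries upstream open reading frames, had 300.3, 342 and 311 CPM in polysomes, against 792, 754 and 734 CPM in total RNA. The groups did not overlap, and the log2 fold change was -1.26 ± 0.08 (SE, edgeR adjusted p = 2.25e-10). Oda (FBgn0014184), the ornithine decarboxylase antizyme made by ribosomal frameshifting, had 284, 436 and 337 CPM in polysomes, against 765, 852 and 767 CPM in total RNA and a log2 fold change of -1.20 ± 0.08 (SE). msl-2, a dosage compensation gene whose translation is blocked in females, did not pass the test, at 45.8, 43.2 and 38.1 CPM in polysomes, against 38.9, 37.0 and 35.3 CPM in total RNA (edgeR adjusted p = 0.0721).

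Housekeeping complexes of small subunits were mostly lower or uncalled. Of 19 vacuolar proton pump subunits tested, 14 were lower (73.7%) and 0 higher, with a median of -0.60, and 10 were lower without the block. Of all nuclear protein-coding genes 26.3% were lower and 16.1% higher. Vha16-1 (FBgn0262736), the proteolipid of the membrane ring, had 1213, 1922 and 1762 CPM in polysomes, against 3533, 3159 and 3097 CPM in total RNA, and VhaM9.7-b gave a log2 fold change of -1.05. Of 70 nuclear-encoded oxidative phosphorylation genes, 34 were lower (48.6%) and 1 higher (1.43%). Of these, 17 were lower without the block and 22 without polysome replicate 1 or total RNA replicate 1. COX5B (FBgn0031830), a subunit of cytochrome c oxidase, had 34.5, 53.3 and 44.2 CPM in polysomes, against 113, 127 and 112 CPM in total RNA, with no overlap (-1.43 ± 0.08, SE). ND-MNLL, a complex I subunit of 56 codons, had a log2 fold change of -0.95.

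Mitochondrial ribosomal proteins had 14 of 73 lower and 0 higher, which is below the 26.3% of all genes. The 14 became 6 without the block and 8 or 9 without polysome replicate 1, polysome replicate 2, total RNA replicate 1, total RNA replicate 3 or replicate 3. Their lowest members were mRpL35 (1.69, 2.41 and 2.85 CPM in polysomes, against 4.77, 6.97 and 5.38 CPM in total RNA) and mRpS28 (-1.17, log2 fold change). Proteasome subunits had 14 of 37 lower (37.8%) and 1 higher (2.7%), against 26.3% and 16.1% of all nuclear protein-coding genes. Their median was -0.17, with Rpn6 lowest at -0.57. The same fit without the block called 0 proteasome subunits lower, and the count was 7 without total RNA replicate 1 and 8 without polysome replicate 3. Among 13 glycolytic enzymes 7 were lower (53.8%) and 0 higher (median -0.27). Pgi was at 120.0, 156 and 136 CPM in polysomes, against 215, 226 and 225 CPM in total RNA, and Ald1 had a log2 fold change of -0.45. Hexokinase Hex-A was uncalled at 488, 499 and 542 CPM in polysomes, against 501, 472 and 468 CPM in total RNA. Without the block, or without total RNA replicate 1, the glycolytic count was 2, and it was 3 without polysome replicate 1 or replicate 1. CCT chaperonin subunits had 4 of 8 lower (50%), led by CCT7 (-0.49), and 0 without replicate 3.

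**Figure D3:**
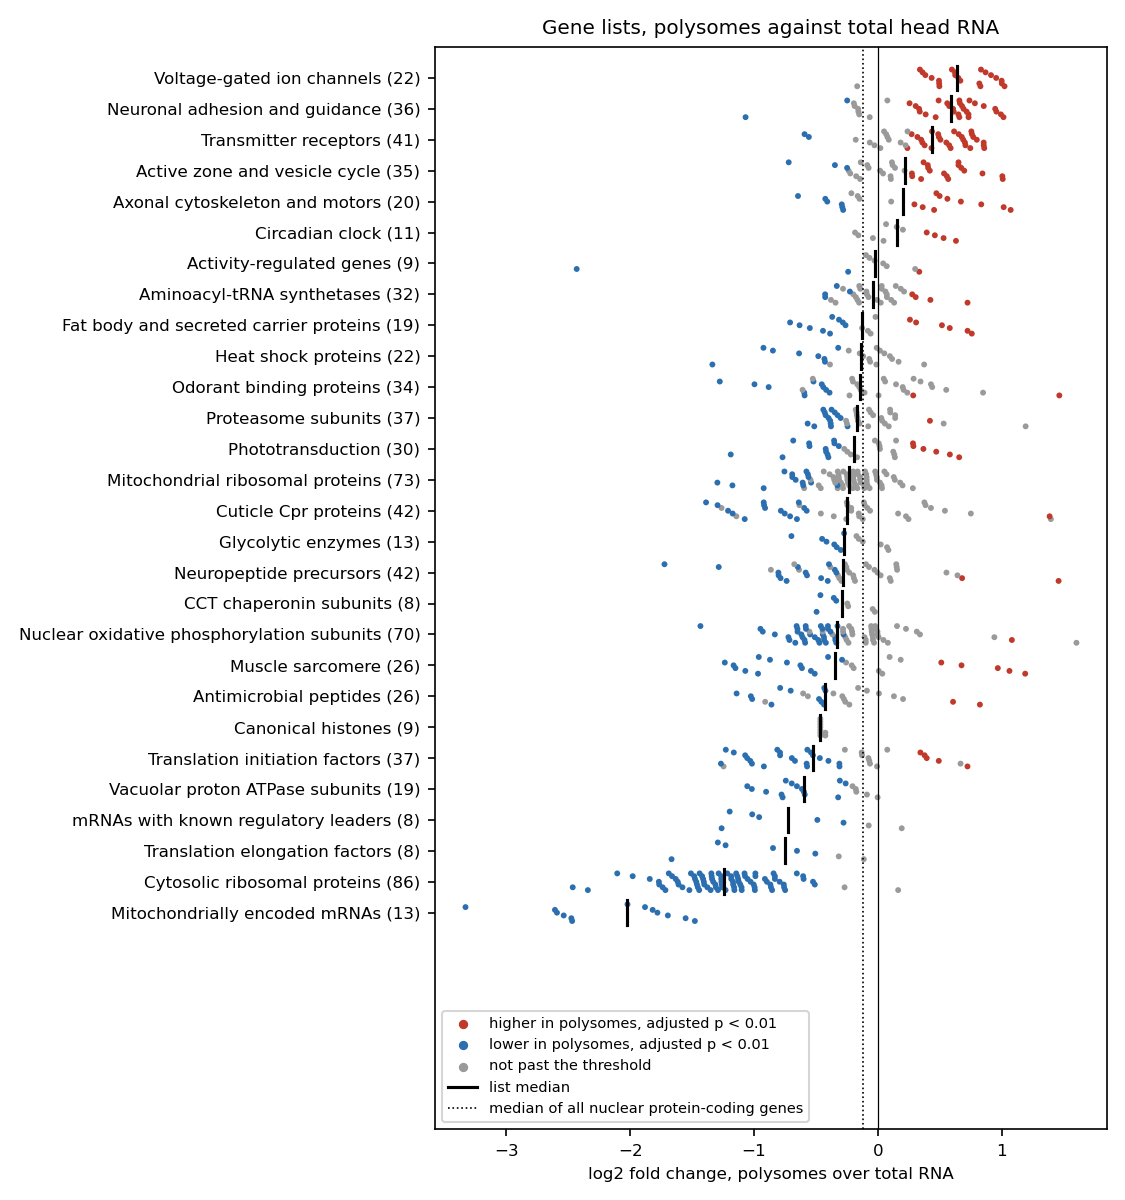
Log2 fold change, polysomes over total RNA, of each tested member of 28 gene lists (number tested in parentheses), ordered by the list median, with red points higher and blue points lower at an adjusted p below 0.01 and grey points uncalled. Voltage-gated ion channels are at the top with a median of 0.64, and cytosolic ribosomal proteins (-1.24) and mitochondrially encoded mRNAs (-2.02) are at the bottom.

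Most listed genes of voltage-gated ion channels, transmitter receptors and adhesion were higher in polysomes, as were 17 of 35 active zone and vesicle cycle genes. Of 22 voltage-gated ion channel genes, 21 were higher and 0 lower, against 16.1% and 26.3% of all nuclear protein-coding genes. Their median log2 fold change was 0.64 and their median CDS 1206 codons. In the longest CDS decile, which starts at 1136 codons, 74.0% of genes were higher. cac (FBgn0263111, chromosome X, 11931280 to 11985087), the presynaptic calcium channel, had 776, 565 and 637 CPM in polysomes, against 345, 326 and 310.0 CPM in total RNA. Its polysome libraries all exceeded its total RNA libraries (log2 fold change 1.002 ± 0.08, SE; edgeR adjusted p = 5.21e-09). Ca-alpha1T, the T-type calcium channel, had a log2 fold change of 1.02. The potassium channel Shal was at 138, 152 and 142 CPM in polysomes, against 119, 113 and 109.1 CPM in total RNA (0.34). sei, the ERG-type potassium channel, was the 1 uncalled member, at 22.7, 20.6 and 20.8 CPM in polysomes, against 22.6, 23.0 and 26.1 CPM in total RNA.

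Transmitter receptors had 28 of 41 higher (68.3%) and 2 lower (4.88%), against 16.1% and 26.3% of all nuclear protein-coding genes (median 0.44, CDS 617 codons). Nmdar2 (FBgn0053513), an NMDA receptor subunit, had 194, 162 and 168 CPM in polysomes, against 103, 95.6 and 89.2 CPM in total RNA, with no overlap and a log2 fold change of 0.86 ± 0.07 (SE). nAChRalpha3, an acetylcholine receptor subunit, was close to it at 0.86. The 2 lower receptors were Dop2R and HisCl1. Dop2R (FBgn0053517), a dopamine receptor, had 230.0, 178 and 193 CPM in polysomes, against 304, 288 and 285 CPM in total RNA (-0.56 ± 0.08, SE) on a CDS of 851 codons. HisCl1 (FBgn0037950), a histamine-gated chloride channel of the visual system, had 9.46, 9.76 and 9.96 CPM in polysomes, against 13.4, 16.1 and 14.2 CPM in total RNA (-0.59 ± 0.10, SE).

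Adhesion and guidance genes had 27 of 36 higher (75%) and 2 lower, with a median of 0.59 and a median CDS of 1476.25 codons. The longest CDS decile, with a median of 1492 codons, had 74.0% of its genes higher and a median log2 fold change of 0.48. In adhesion and guidance 1 gene was lower without the block, and with RLE size factors or factors set on nuclear protein-coding genes. The same count came without polysome replicate 1 or 3, any 1 total RNA library, replicate 2 or replicate 3. The giant atypical cadherins kug (1.02) and ft (0.99) led the list by log2 fold change. ft (FBgn0001075), of 5147 codons, had 182, 115.0 and 155 CPM in polysomes, against 82.3, 63.5 and 78.2 CPM in total RNA. Lac (FBgn0010238), the immunoglobulin-domain protein lachesin of 359 codons, was the lowest at 52.9, 71.6 and 64.4 CPM in polysomes, against 132, 133 and 129 CPM in total RNA. Its values did not overlap between groups, and the log2 fold change was -1.07 ± 0.08 (SE, edgeR adjusted p = 2.83e-09).

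Active zone and vesicle cycle genes had 17 of 35 higher (48.6%) and 3 lower (8.57%), with a median of 0.22. The shares of all nuclear protein-coding genes were 16.1% higher and 26.3% lower. Of the 35, 12 were higher without the block and 11 without replicate 3. The count lower was 1 without the block, without polysome replicate 1 or without total RNA replicate 1. unc-13 (FBgn0025726), the vesicle priming factor, is 2871 codons long and had 2799, 2055 and 2339 CPM in polysomes, against 1231, 1167 and 1158 CPM in total RNA, with no overlap (1.01 ± 0.09, SE). RhoGAP100F, the fly Syd-1, was at a log2 fold change of 1.01. alphaSnap (FBgn0250791), the adaptor that recruits NSF to SNARE complexes, was at 84.2, 135 and 116 CPM in polysomes, against 174, 196 and 175 CPM in total RNA (-0.72 ± 0.08, SE) on 292 codons. The vesicle chaperone Csp had a log2 fold change of -0.35, and an edgeR adjusted p of 0.0265 without the block.

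In the axonal cytoskeleton, 10 of 20 genes were higher (50%) and 6 lower (30%), against 16.1% and 26.3% of all nuclear protein-coding genes. The 10 became 6 without the block, and the 6 became 3 without the block or without any of the libraries polysomes 1 and total RNA 1, 2 and 3. futsch (FBgn0259108, chromosome X, 1409069 to 1453686), the MAP1B-like microtubule protein of 5495 codons, had 6219, 4709 and 4908 CPM in polysomes, against 2544, 2568 and 2371 CPM in total RNA. The groups were far apart, with a log2 fold change of 1.07 ± 0.08 (SE, edgeR adjusted p = 6.6e-09). shot, the spectraplakin that links actin and microtubules, was at 1.02. Act5C (FBgn0000042), cytoplasmic actin, had 619, 847 and 749 CPM in polysomes, against 1078, 1220.2 and 1142 CPM in total RNA (-0.64 ± 0.08, SE), and betaTub56D, a tubulin, had -0.42. Actin and tubulin genes have near-identical paralogues among which reads could be divided.

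Phototransduction genes of the eye went both ways. Of 30 phototransduction genes 6 were higher (20%) and 12 lower (40%), with a median of -0.19. Of all nuclear protein-coding genes 16.1% were higher, near the share of this list, and 26.3% lower. Without the block 5 phototransduction genes were lower, and without replicate 2 or 3 the count higher was 3. ninaE (FBgn0002940, chromosome 3R, 19886255 to 19888206), which encodes the major rhodopsin of the outer photoreceptors, had 5230.3, 6072 and 5456 CPM in polysomes, against 14093, 12694 and 11501 CPM in total RNA. All polysome values were below all total RNA values, 2.28-fold in the fit (log2 fold change -1.19 ± 0.09, SE; edgeR adjusted p = 2.53e-09). Rh4, an ultraviolet opsin of R7 cells, was at 131, 213 and 162 CPM in polysomes, against 279, 301 and 266 CPM in total RNA (-0.77). The light-activated channel trp (FBgn0003861) had 2712, 2898 and 2612 CPM in polysomes, against 1734, 1790.2 and 1686 CPM in total RNA. The trp groups did not overlap in the opposite direction (0.66 ± 0.09, SE). rdgB, a phosphatidylinositol transfer protein, was also higher (0.58).

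Muscle genes went both ways. Of 26 sarcomere genes 14 were lower (53.8%) and 5 higher (19.2%), against 26.3% and 16.1% of all nuclear protein-coding genes. Without the block 3 were higher. sls (FBgn0086906), the titin-like protein with a median CDS of 15953 codons over its transcripts, had 5692, 2618 and 4144 CPM in polysomes, against 2421, 1457 and 1945 CPM in total RNA (1.06 ± 0.10, SE). Its replicate 2 total RNA was low too, and in each pair the polysome value was the higher one. TpnC73F (FBgn0010424), a troponin C of 155 codons, had 5.54, 6.02 and 4.85 CPM in polysomes, against 12.7, 12.8 and 13.3 CPM in total RNA, without overlap (-1.24 ± 0.13, SE). Act57B, a muscle actin, was at -1.16.

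**Figure D4:**
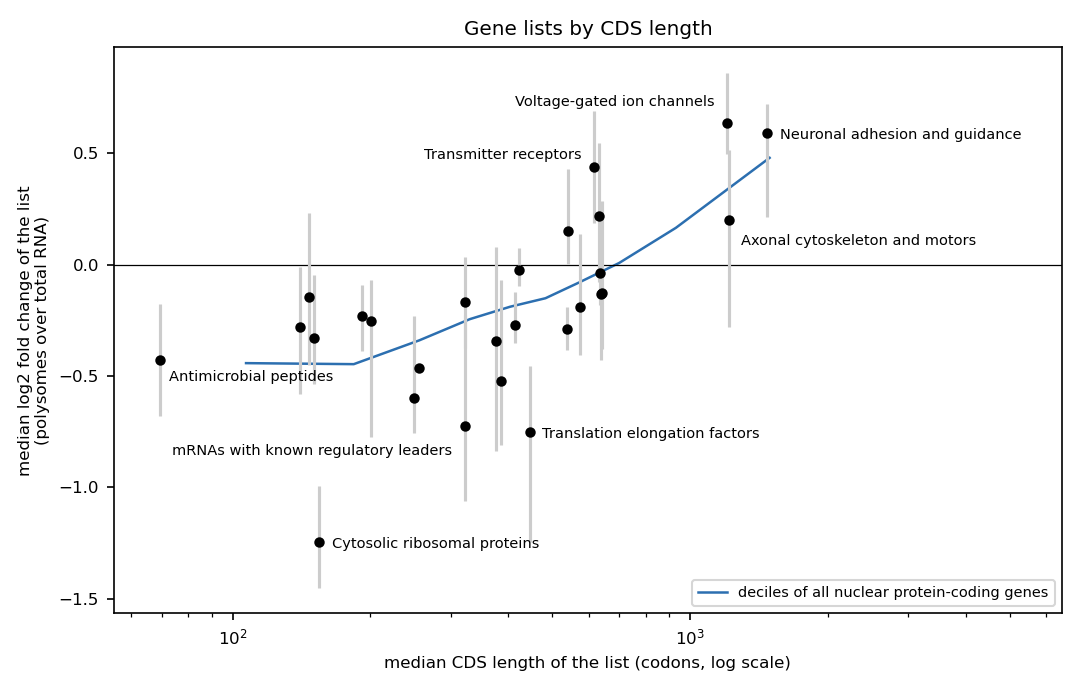
Median log2 fold change of each gene list against its median CDS length (codons, log scale), with the interquartile range of its members as a grey bar, and the medians of the CDS deciles of all nuclear protein-coding genes as a blue line; mitochondrially encoded mRNAs are left out. Cytosolic ribosomal proteins (154.75 codons, -1.24) lie under the line by the widest margin, and transmitter receptors (617 codons, 0.44) lie above it.

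Small secreted proteins were mixed. Neuropeptide precursors had 14 of 42 lower (33.3%) and 2 higher (4.76%), against 26.3% and 16.1% of all nuclear protein-coding genes, and a median of -0.28. Without the block 3 of them were lower and 0 higher. The count lower was 8 without total RNA replicate 1 and 9 without replicate 2 or 3. Nplp3 (FBgn0042201), a neuropeptide-like precursor of 90 codons, had 643, 1280.3 and 1009.8 CPM in polysomes, against 2721, 3463 and 3121 CPM in total RNA. The groups were separated by a log2 fold change of -1.72 ± 0.11 (SE, edgeR adjusted p = 5.29e-10). Antimicrobial peptides had 11 of 26 lower (42.3%) and 2 higher (7.69%), but 2 lower without the block, 3 without polysome replicate 1 and 4 without total RNA replicate 1. BomS4, a bomanin, had 3.92, 8.004 and 6.30 CPM in polysomes, against 9.57, 15.4 and 12.6 CPM in total RNA (-1.02), in contrast to Drsl5 above.

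Odorant binding proteins had 10 of 34 lower and 2 higher, a share lower close to the 26.3% of all nuclear protein-coding genes. The count higher was 0 without the block, polysome replicate 2 or total RNA replicate 2, 5 without total RNA replicate 1 or replicate 1, and 6 with RLE size factors or factors set on nuclear protein-coding genes. The count lower was 4 without the block and 6 without polysome replicate 3 or total RNA replicate 1. Obp18a was at 5.08, 12.96 and 8.72 CPM in polysomes, against 17.04, 26.5 and 20.7 CPM in total RNA (-1.28) and Obp57b at a log2 fold change of -0.996. Of 42 cuticle proteins of the Cpr family, 15 were lower (35.7%) and 1 higher (2.38%), against 26.3% and 16.1% of all nuclear protein-coding genes. Without the block 10 cuticle genes were lower. With RLE size factors or factors set on nuclear protein-coding genes 3 were higher. Cpr62Bc (FBgn0035281) had 75.8, 107 and 114 CPM in polysomes, against 231, 255 and 279.5 CPM in total RNA (-1.39 ± 0.08, SE), and the 1 higher member, Cpr64Ad (FBgn0035513), had 13.5, 10.3 and 10.3 CPM in polysomes, against 4.64, 3.47 and 4.87 CPM in total RNA (1.39 ± 0.15, SE). The groups of these 2 cuticle genes did not overlap, in opposite directions, on coding sequences of 180 and 247 codons.

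Fat body and carrier proteins had 6 of 19 higher (31.6%) and 9 lower (47.4%), against 16.1% and 26.3% of all nuclear protein-coding genes. Without the block 3 of the 19 were higher and 0 lower, and without replicate 3 the counts were 3 and 4. Lsp1gamma (11.4, 13.1 and 12.98 CPM in polysomes, against 6.57, 7.07 and 8.47 CPM in total RNA) and Lsp2 (2484, 4205 and 3098 CPM in polysomes, against 4677, 6000.4 and 5019 CPM in total RNA), both larval serum proteins, moved oppositely, with log2 fold changes of 0.76 and -0.71. Lsp2 lost its call without the block (edgeR adjusted p = 0.0204). Clock genes had 4 of 11 higher (36.4%, against the 16.1% above) and 0 lower. They were led by tim (209, 164 and 182 CPM in polysomes, against 121, 115.3 and 121 CPM in total RNA, log2 fold change 0.63) and Clk (0.53). Heat shock genes had 8 of 22 lower (36.4%, against the 26.3% above) and 0 higher, or 5 lower without the block. Hsp26 was at 4.31, 6.55 and 8.34 CPM in polysomes, against 12.3, 15.3 and 21.4 CPM in total RNA (-1.34), and Hsc70-1 was at -0.92. For Hsp26 each polysome value was below the total RNA value of its own number. Of 9 activity-regulated genes Arc1 stood alone in size, and the list median was -0.03. The 9 canonical histone genes tested were near-identical copies of His1, with 0 called by edgeR or DESeq2 and 0 at an unadjusted p below 0.05.

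Markers of cell types did not move as one. Neuronal markers had 3 of 5 higher and 0 lower, with brp (0.85), the active zone scaffold, and elav (0.43), the pan-neuronal RNA-binding protein, highest. Glial markers had 2 of 11 higher and 8 lower, and 3 lower without the block, with nrv2, a sodium pump subunit, at 226, 323 and 283 CPM in polysomes, against 608, 635 and 584 CPM in total RNA (-1.15). The glial sum was 2211 to 2778 CPM in polysomes and 3398 to 3771 CPM in total RNA. Fat body markers had 0 of 6 higher and 5 lower, but 0 lower without the block, and their sums of 25338 to 39660 CPM in polysomes and 34246 to 47507 CPM in total RNA overlapped. The part of cell type in the list values was not tested.

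The mRNAs of the mitochondrial genome, which mitochondrial and not cytosolic ribosomes translate, were low in polysomes. All 13 mRNAs of the mitochondrial genome were lower (100% of those tested), with a median log2 fold change of -2.02; without replicate 1, 7 of them passed the threshold. mt:ND3 (FBgn0013681) had 5.69, 7.87 and 6.30 CPM in polysomes, against 66.9, 71.5 and 65.0 CPM in total RNA, 10.05-fold lower in polysomes. mt:Cyt-b had 760.0, 1372 and 885 CPM in polysomes, against 6121, 6131 and 5479.9 CPM in total RNA (-2.59 ± 0.19, SE; edgeR adjusted p = 1.77e-05, and 0.0206 without replicate 1). The smallest change was that of mt:CoI, with 4991, 8681 and 5495 CPM in polysomes, against 17934, 17564 and 16619 CPM in total RNA (-1.48 ± 0.15, SE; edgeR adjusted p 0.0462 without replicate 1). In each of the 3 the groups were disjoint. Of 12 other mitochondrial RNAs, which are rRNAs and tRNAs, 7 were lower (58.3%) and 0 higher. Mitochondrial RNA took 0.901 to 1.52% of reads in polysomes, against 3.69 to 3.95% in total RNA.

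Several RNAs that are not translated were among the lowest features, while snRNAs and snoRNAs as classes had medians of -1.30 and -1.44, nearer to 0 than the mitochondrial mRNAs. RNaseP:RNA (FBgn0046696), the catalytic RNA of tRNA processing, had 38.7, 29.1 and 21.5 CPM in polysomes, against 1163, 1003 and 1108 CPM in total RNA, a log2 fold change of -5.24 ± 0.17 (SE, edgeR adjusted p = 4.02e-09). lncRNA:roX2 (FBgn0019660), which coats the male X chromosome, had 6.08, 4.86 and 6.55 CPM in polysomes, against 120.1, 90.7 and 93.6 CPM in total RNA (-4.10 ± 0.10, SE). snRNA:7SKa, which holds a transcription elongation factor inactive, had 203, 124 and 145 CPM in polysomes, against 2566, 1728 and 1909.8 CPM in total RNA (-3.73 ± 0.09, SE). None of these RNAs overlapped between groups. Of 29 snRNA genes 22 were lower (75.9%) and 0 higher, with the spliceosomal snRNA:U5:38ABb at -3.61, and of 172 snoRNA genes 128 were lower (74.4%) and 2 higher (1.16%), 75.6% in all, with snoRNA:Psi18S-996 at -4.38. Many of these genes have near-identical copies among which reads were divided, and many lie in introns of other genes.

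Over all 13076 features 17.9% were higher and 23.4% lower. Of 759 ncRNA genes 145 were higher (19.1%), near that share, and 93 lower (12.3%). lncRNA:CR45541 (FBgn0267101) had 23.5, 13.56 and 19.1 CPM in polysomes, against 7.37, 4.59 and 7.24 CPM in total RNA, with no overlap and a log2 fold change of 1.54 ± 0.13 (SE). lncRNA:CR42862 (1.29) shares exons with the coding gene CG33229. The 13 rRNA features, left over after rRNA depletion, had 0 calls by edgeR or DESeq2 and 0 at an unadjusted p below 0.05, with a median log2 fold change of 1.02. Their median log2 ratio within a pair was 1.57 in replicate 1 and 0.98 in replicate 2 but -0.33 in replicate 3. Of 27 tRNA genes 5 were lower (18.5%), and of 110 pseudogenes 5 were higher (4.55%) and 14 lower (12.7%), all under the shares over all features.

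Transposable element copies were the class with the highest share of increases among those of at least 100 features. Of 1478 copies tested, 504 were higher (34.1%) and 35 lower (2.37%), with a median log2 fold change of 0.71. Their share of reads was 1.77 to 2.80% in polysomes, against 0.847 to 1.004% in total RNA. Copies that overlap no gene on their strand had 302 of 783 higher and 13 lower (median 0.82). Copies that overlap a gene on their strand, in whole or in part, had 202 of 695 higher and 22 lower (median 0.58).

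The LTR retrotransposon roo, whose full copies encode a long Gag-Pol-Env polyprotein, had 108 of 115 copies higher and 2 lower, with a median of 1.64. Copies of a family are near-identical and reads were divided among them, so these are not independent counts. Summed over copies, roo reached 652 to 1458 CPM in polysomes, against 291 to 432 CPM in total RNA. The copy roo{}854 had 156, 61.2 and 84.8 CPM in polysomes, against 31.4, 18.5 and 22.4 CPM in total RNA, and the copy roo{}339 had 19.9, 9.26 and 13.4 CPM in polysomes, against 53.2, 51.8 and 53.2 CPM in total RNA, each without overlap but in opposite directions (1.999 and -1.97). Both calls were lost when some libraries were left out: roo{}854 had an edgeR adjusted p of 0.0177 without total RNA replicate 1 and 0.0216 without replicate 2, and roo{}339 had 0.0177 without total RNA replicate 1 and 0.0370 without replicate 3. Other LTR families had 22 of 23 copies higher for flea, 19 of 22 for blood and 36 of 53 for 297. The flea sum was 70.1 to 115.8 CPM in polysomes, against 32.7 to 33.8 CPM in total RNA. That of 297 was 414 to 622 CPM, against 204 to 274 CPM. The blood sums overlapped, at 122 to 135 CPM in polysomes and 113 to 131 CPM in total RNA. The 1 blood copy that was lower overlaps eIF4A on its strand. It had 22.8, 32.0 and 26.6 CPM in polysomes, against 78.2, 77.9 and 71.0 CPM in total RNA. copia had 9 of 33 copies higher with a median of 1.60, and its sum was 5225 to 10287 CPM in polysomes, against 1883 to 2410 CPM in total RNA. Of the 69 copies of the non-LTR element Doc 10 were higher, and of the 35 copies of jockey 1 was.

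**Figure D5:**
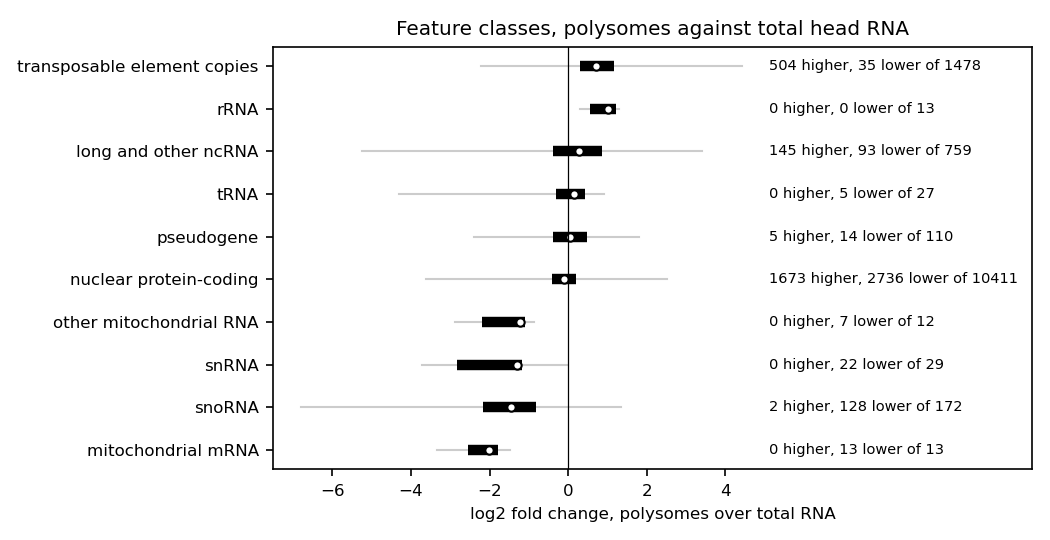
Log2 fold change, polysomes over total RNA, of the features of 10 classes, with the median as a white circle, the interquartile range as a black bar, the full range as a grey line, and the numbers called at an adjusted p below 0.01 at the right. Mitochondrial mRNAs (-2.02), snoRNAs and snRNAs lie below 0, and transposable element copies (0.71) and rRNA lie above it.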

How the data were processed

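Polysome and total RNA of 3 head lysates were rRNA-depleted and sequenced by the authors from stranded libraries. Per the study's methods and the submitters' processing notes, reads were trimmed with Trimmomatic 0.33 (minimum length 25 bases), aligned with STAR 2.7.10a to BDGP6.32 (Ensembl 109) and counted per gene on their strand with featureCounts 2.0.1, with reads that fit several places or features divided among them. The values the authors deposited are therefore estimated counts, and 33.5 to 40.3% of the values in the 6 libraries compared were not whole; they were rounded to whole numbers. A second deposited table, of transcripts, was not used, so its 9 columns of per-sample values entered no step.

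Here edgeR 4.0.16 (quasi-likelihood test, TMM scaling, default filter on low counts) was fitted to all 9 libraries with the replicate number as a block (4 residual degrees of freedom) and tested polysomes over total RNA, with Benjamini-Hochberg adjustment over 13076 features and a threshold of 0.01. The study's own comparison used DESeq2 without a stated block, which was run as an alternative with DESeq2 1.42.0, beside other scalings, filters, thresholds and left-out libraries. The block was used because polysomes and total RNA of 1 number come from 1 lysate. Deviations from the group means correlated between libraries of the same number (r = 0.21 to 0.38). Between different numbers r was -0.31 to -0.07. Deviations from a group mean cancel within each gene, so these negative values largely follow from the positive ones and add no separate evidence.

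Names, biotypes, positions and lengths (median over a gene's protein-coding transcripts) came from Ensembl 115 (BDGP6.54), which lacks 52 of the features tested. Named genes were the 12 with the largest change in each direction among called genes with at least 10 CPM and disjoint groups, up to 4 extreme members of each list, and up to 3 per direction of each other class. Exceptions to length were added after their values were seen. The comparison, the lists and the members were chosen with earlier results of these data known.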

Additional observations from a re-analysis of the deposited data

How the results depend on the processing

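No nuclear protein-coding gene called in 1 direction was called in the other under the 17 alternative fits, but the number of calls moved. Without the replicate block, which ignores that polysomes and total RNA of a number share a lysate, 915 nuclear protein-coding genes were higher and 1353 lower, and DESeq2 without the block called 1768 lower. A filter at 10 CPM, which changes both the features tested and the scaling, gave 1843 nuclear protein-coding genes higher and 1543 lower, and 153 other features higher and 88 lower. Without total RNA replicate 1 the count lower was 1793. Leaving out 1 library or 1 pair gave 1231 to 1713 genes higher and 1793 to 2361 lower, and for the other features 486 to 625 higher and 248 to 268 lower. The share of calls that were higher was 37.9%, and it was 46.4% with RLE size factors, 51.8% with TMM on nuclear protein-coding genes and 54.4% with the filter at 10 CPM. The ratio of the median CDS of genes higher to that of genes lower was 3.14 to 4.85 over all alternatives. Of 28 list medians 25 kept their sign throughout, and those of aminoacyl-tRNA synthetases, odorant binding proteins and activity-regulated genes did not. The genes named in the text whose calls were lost most often were zye (13 of 18), chp (10 of 18) and Shal (5 of 18), and the cause was not tested. In the quintile of genes with the lowest level 6.34% were called higher and 8.11% lower, and in the quintile with the highest level 42.3% and 29.1%.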
